A study of Homo sapiens with 8 samples.

Results

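Chromosomes 11, 12, 13 and 16 carried regions enriched in DNA double-strand breaks (BLISS+ regions) in both libraries of CDK12-silenced cells with active MycER and in neither library of the control cells. These 4 chromosomes were chosen by that readout: the 2 shNT+OHT lists hold 1192 and 788 regions, with 0 on any of the 4, so their absence there is the rule of selection and not a result. The members are all 913 regions listed on these chromosomes after CDK12 silencing, 516 in replicate 1 and 397 in replicate 2, out of 8231 regions in the 2 shCDK12+OHT lists and 10211 in all 4 lists. Since no control region exists on them, no comparison of shCDK12+OHT with shNT+OHT can be made there, and the members are described against the regions of the other 18 autosomes in the same libraries.

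Breaks were mapped by sBLISS, in which the broken ends of fixed cells are ligated in situ to an adapter with a unique molecular identifier, so that each sequenced fragment starts at a break. U2OS, a human osteosarcoma line with a rearranged, aneuploid karyotype, was used with a MycER transgene, a chimera of Myc and the part of the oestrogen receptor that binds hormone, which 4-hydroxytamoxifen (OHT) switches on. Cells carried a hairpin against CDK12 (shCDK12) or one with no target (shNT), and all received 1 µg/mL doxycycline to induce the hairpin, 100 ng/mL nocodazole for 8 h, shake-off of the arrested cells, release for 18 h and fixation in 2% paraformaldehyde. Both groups with a list also received 300 nM OHT for 40 h. The labels name 8 samples in 4 groups of 2, and the 4 samples without OHT were not analysed here. Nothing in the labels says whether the 2 replicates came from separate cultures or how many hairpins against CDK12 were used, so the spread between replicates may be technical.

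CDK12 is a kinase that travels with transcribing RNA polymerase II and phosphorylates its C-terminal domain, and it is known for sustaining the expression of long genes, many DNA repair genes among them. Oncogenic Myc drives transcription and replication at once, and double-strand breaks are a known outcome of collisions between both machineries. Among the chromosomes described here, 13 is acrocentric and gene-poor, 16 is gene-dense with a large block of heterochromatin below its centromere, and 11 and 12 each have 2 sequenced arms.

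The lists give a chromosome, a start and an end for each region on hg19, with no signal, count or score, and library depth is therefore unknown. A region is a stretch that passed the authors' call, and a place without one can still hold breaks below it. Whole chromosomes are missing from single lists: each shNT+OHT list holds 13 of the 22 autosomes, shCDK12+OHT replicate 1 holds 21 and replicate 2 holds 22. Of the other 18 autosomes, 10 are in 1 shNT+OHT list and 8 in both. Just outside the rule stand chromosome 19, with 0 and 5 regions in shNT+OHT replicates 1 and 2, chromosome 20 with 0 and 13, chromosome 9 with 16 and 0, and chromosome 22 with 0 and 17. Other autosomes in 1 of these lists held more regions there. Chromosome 5 had 0 and 65, 17 had 62 and 0, 18 had 0 and 60, and 3 had 44 and 0. Chromosomes 15 and 21 had 23 and 0 each. Absence from a list thus did not go only with few regions in the other list. The autosome missing from shCDK12+OHT replicate 1 is chromosome 19, which was therefore left out of that replicate's sums. Whether the absence of a whole chromosome from a list came from the cells or from the making of the list cannot be told apart here.

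Among the 4 chromosomes break regions were densest on chromosome 12 and thinnest on chromosome 13. Density was counted as regions per Mb of sequenced chromosome, which here means the length without centromeric, heterochromatin and acrocentric short-arm gaps. Smaller assembly gaps were not taken out. The 95% exact Poisson interval given after a density covers counting error alone and treats regions as independent, which neighbours on a chromosome are not.

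Chromosome 12 held 201 regions in replicate 1 and 157 in replicate 2, or 1.54 (1.33 to 1.76) and 1.20 (1.02 to 1.40) regions per Mb. Chromosome 11, of almost the same sequenced length (132 Mb against 131 Mb), held 151 and 121, or 1.14 (0.969 to 1.34) and 0.917 (0.761 to 1.10) per Mb. Chromosome 16 held 92 and 59 regions, or 1.16 (0.935 to 1.42) and 0.743 (0.566 to 0.959) per Mb. These values place 12 first in both replicates, while 11 and 16 changed places between the replicates.

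Chromosome 13 held the fewest regions relative to its length, with 72 in replicate 1 and 60 in replicate 2, or 0.749 (0.586 to 0.943) and 0.624 (0.476 to 0.803) per Mb. The means were 1.37 ± 0.238 for chromosome 12, 1.03 ± 0.161 for 11, 0.951 ± 0.294 for 16 and 0.686 ± 0.0882 for 13 (regions per Mb, SD, n = 2). Neighbours in this order overlapped in their counting intervals in both replicates, whereas the intervals of 12 and 13 were separate in both. Replicate 1 was the denser library on each of the 4 chromosomes, as it was over its whole list.

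Set in the order of all autosomes from dense to sparse, chromosome 12 lay in the middle, at place 11 of 21 in replicate 1 and 14 of 22 in replicate 2. The other members lay at the sparse end. Chromosomes 16, 11 and 13 were at places 18, 20 and 21 of 21 in replicate 1, and chromosomes 11, 16 and 13 at places 18, 20 and 21 of 22 in replicate 2. Among or below them at that end lay chromosome 21 in replicate 1 (1.15 per Mb) and chromosomes 9 and 19 in replicate 2, the last with 0.445 per Mb.

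**Figure D1:**
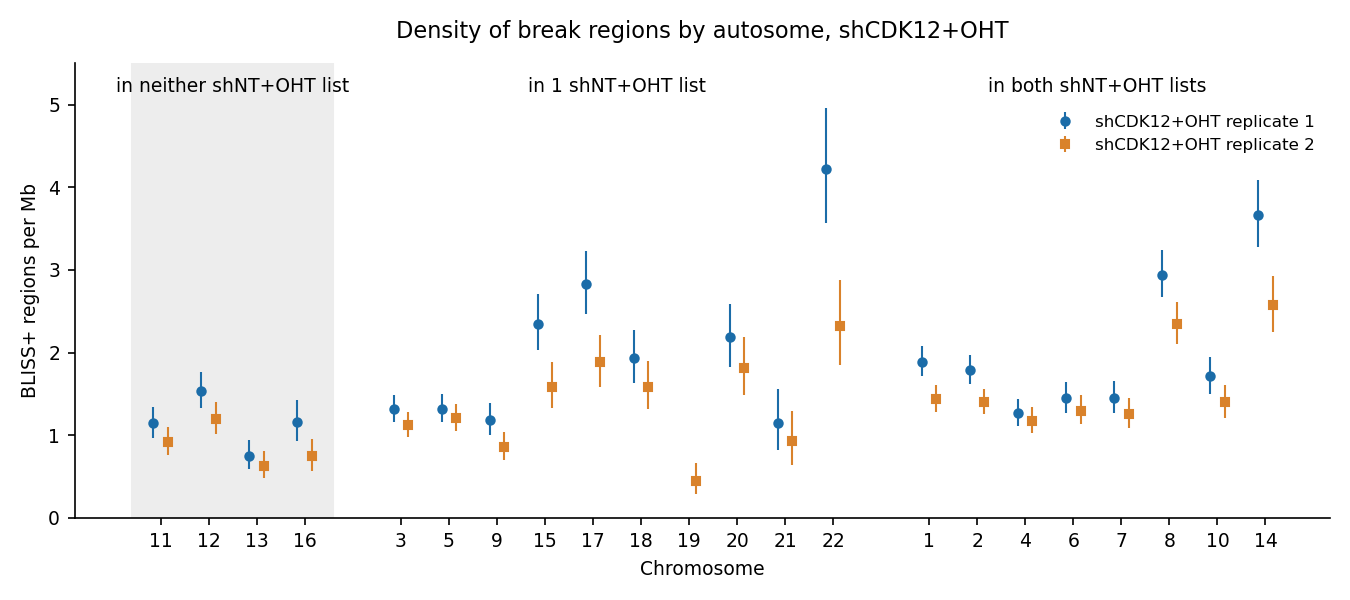
BLISS+ regions per Mb of sequenced length (vertical axis) for each autosome (horizontal axis) in shCDK12+OHT replicate 1 (circles) and replicate 2 (squares), with 95% exact Poisson intervals as bars and the autosomes grouped by how many shNT+OHT lists hold them. Chromosomes 11, 12, 13 and 16 (shaded) lie between 0.624 and 1.54 regions per Mb, and the other autosomes between 0.445 (chromosome 19, replicate 2) and 4.22 (chromosome 22, replicate 1).

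Together the 4 chromosomes held fewer regions per Mb than the other autosomes of the same library. In replicate 1 the members had 1.18 (1.08 to 1.28) regions per Mb and the other autosomes 1.84 (1.78 to 1.90). In replicate 2 the values were 0.906 (0.819 to 0.999) and 1.43 (1.38 to 1.48). The log2 ratio of members to other autosomes was -0.64 in replicate 1 and -0.66 in replicate 2, with a mean of -0.65 and an SD of 0.010 between replicates. The exact two-sided sign-flip permutation test over the 2 libraries gave p = 0.5 for this ratio, the smallest value that 2 libraries allow, so no difference described here can pass a threshold of 0.05.

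The shortfall held against each of the groups of autosomes that the control lists define. Autosomes in 1 shNT+OHT list had 1.76 and 1.29 regions per Mb in shCDK12+OHT replicates 1 and 2, and autosomes in both had 1.89 and 1.52. In bases covered the members stood further below the rest than in numbers: their regions covered 3.46 kb per Mb in replicate 1 and 2.44 kb per Mb in replicate 2, against 5.98 and 4.26 kb per Mb on the other autosomes. The copy number of each chromosome in this aneuploid line was not measured here, and its part in these densities was not tested.

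The share of a list that each chromosome took barely moved between replicates for 3 of the 4. Chromosome 11 took 3.30% and 3.32% of the regions listed in replicates 1 and 2, chromosome 12 took 4.39% and 4.30%, and chromosome 13 took 1.57% and 1.64%. Chromosome 16 took 2.01% and 1.62%. The ratio of replicate 1 to replicate 2 regions, 1.30 over the members and 1.27 over the other autosomes without chromosome 19, was 1.56 on chromosome 16, second only to the 1.82 of chromosome 22 among 21 autosomes.

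Within each chromosome the regions were unevenly split between the arms. On chromosome 12 the short arm was the denser, and on 11 and 16 the long arm. The short arm of chromosome 12 held 87 regions in replicate 1 and 69 in replicate 2, which was 43.3% and 43.9% of the chromosome's regions on 26.6% of its sequenced length. Its density was 2.50 (2.00 to 3.08) and 1.98 (1.54 to 2.51) regions per Mb, against 1.19 (0.980 to 1.43) and 0.917 (0.735 to 1.13) on the long arm. The intervals of the arms were separate in both replicates on chromosome 12.

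The short arm of chromosome 11 held 45 and 34 regions, or 0.871 and 0.658 per Mb, and the long arm 106 and 87, or 1.32 and 1.08 per Mb. On chromosome 16 the short arm held 28 and 17 regions, or 0.792 and 0.481 per Mb, and the long arm 64 and 42, or 1.45 and 0.954 per Mb. The counting intervals of the arms overlapped in both replicates on 11 and on 16, and the excess on their long arms was the same in direction in both libraries. The log2 ratio of long-arm to short-arm density was -1.07 and -1.11 on chromosome 12 (mean -1.09), 0.60 and 0.72 on chromosome 11 (mean 0.66), and 0.88 and 0.99 on chromosome 16 (mean 0.93), with an exact sign-flip permutation p of 0.5 each. Chromosome 13 has sequence on its long arm only, so all its regions are long-arm regions.

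Along the chromosomes, windows of 5 Mb counted from the start (those with at least 2.5 Mb of sequence) showed where the regions gathered. The 4 chromosomes have 87 such windows, of which 26 are on 11, 26 on 12, 19 on 13 and 16 on 16. A window held a median of 5 regions in replicate 1 and 4 in replicate 2, against 7 and 6 on the other autosomes without chromosome 19. The fullest window of the members held 26 and 18 regions, far from the 79 and 55 of the fullest window elsewhere.

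Chromosome 12 was fullest at the tip of its short arm. Its first window, chr12:1-5000000, held 26 regions in replicate 1 and 17 in replicate 2, the next held 20 and 13, and the window after that 19 and 17. The first 15 Mb, a stretch chosen after these counts were seen, thus held 65 of 201 regions in replicate 1 (32.3%, 95% Wilson interval 26.3 to 39.1) and 47 of 157 in replicate 2 (29.9%, 23.3 to 37.5) on 11.5% of the sequenced length. The density there was 4.33 and 3.13 regions per Mb. Whole autosomes, which average over longer lengths and are not a like measure, reached at most 4.22 (chromosome 22, replicate 1) and 2.57 (chromosome 14, replicate 2). Single 5 Mb windows on the other autosomes without chromosome 19 held up to 79 and 55 regions, more than any window of this stretch. From 15 Mb onwards no window of chromosome 12 held more than 14 regions in either replicate.

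Chromosome 11 had its fullest window in the long arm, at chr11:110000001-115000000, with 15 regions in replicate 1 and 18 in replicate 2. Replicate 2 listed more regions there than replicate 1, against the order of the whole lists. The second fullest window, 75 to 80 Mb, held 15 and 10, and each window between 55 and 95 Mb held 4 or more in both replicates. On the short arm the window from 5 to 10 Mb stood highest, with 11 and 8 regions, and the windows from 20 to 30 Mb held 1 to 3.

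Chromosome 13 was thin along most of its length and fullest in the last complete window, chr13:110000001-115000000, with 12 regions in replicate 1 and 10 in replicate 2. The windows from 20 to 55 Mb held 3 to 8 regions in replicate 1 and 1 to 7 in replicate 2. The windows from 55 to 60 Mb and from 80 to 90 Mb were empty in both replicates, and those from 60 to 70 Mb held 1 region in each. A long sparse middle thus separated a proximal and a distal part that both carried regions.

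Chromosome 16 had its fullest window directly below the heterochromatin gap, chr16:45000001-50000000, with 13 regions in replicate 1 and 10 in replicate 2, although part of that window is unsequenced. The first window of the short arm also held 13 regions in replicate 1 but 6 in replicate 2, and the window from 65 to 70 Mb held 12 and 7. The window from 15 to 20 Mb held none in either replicate. The other short-arm windows held 2 to 4 regions in replicate 1 and 0 to 5 in replicate 2.

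**Figure D2:**
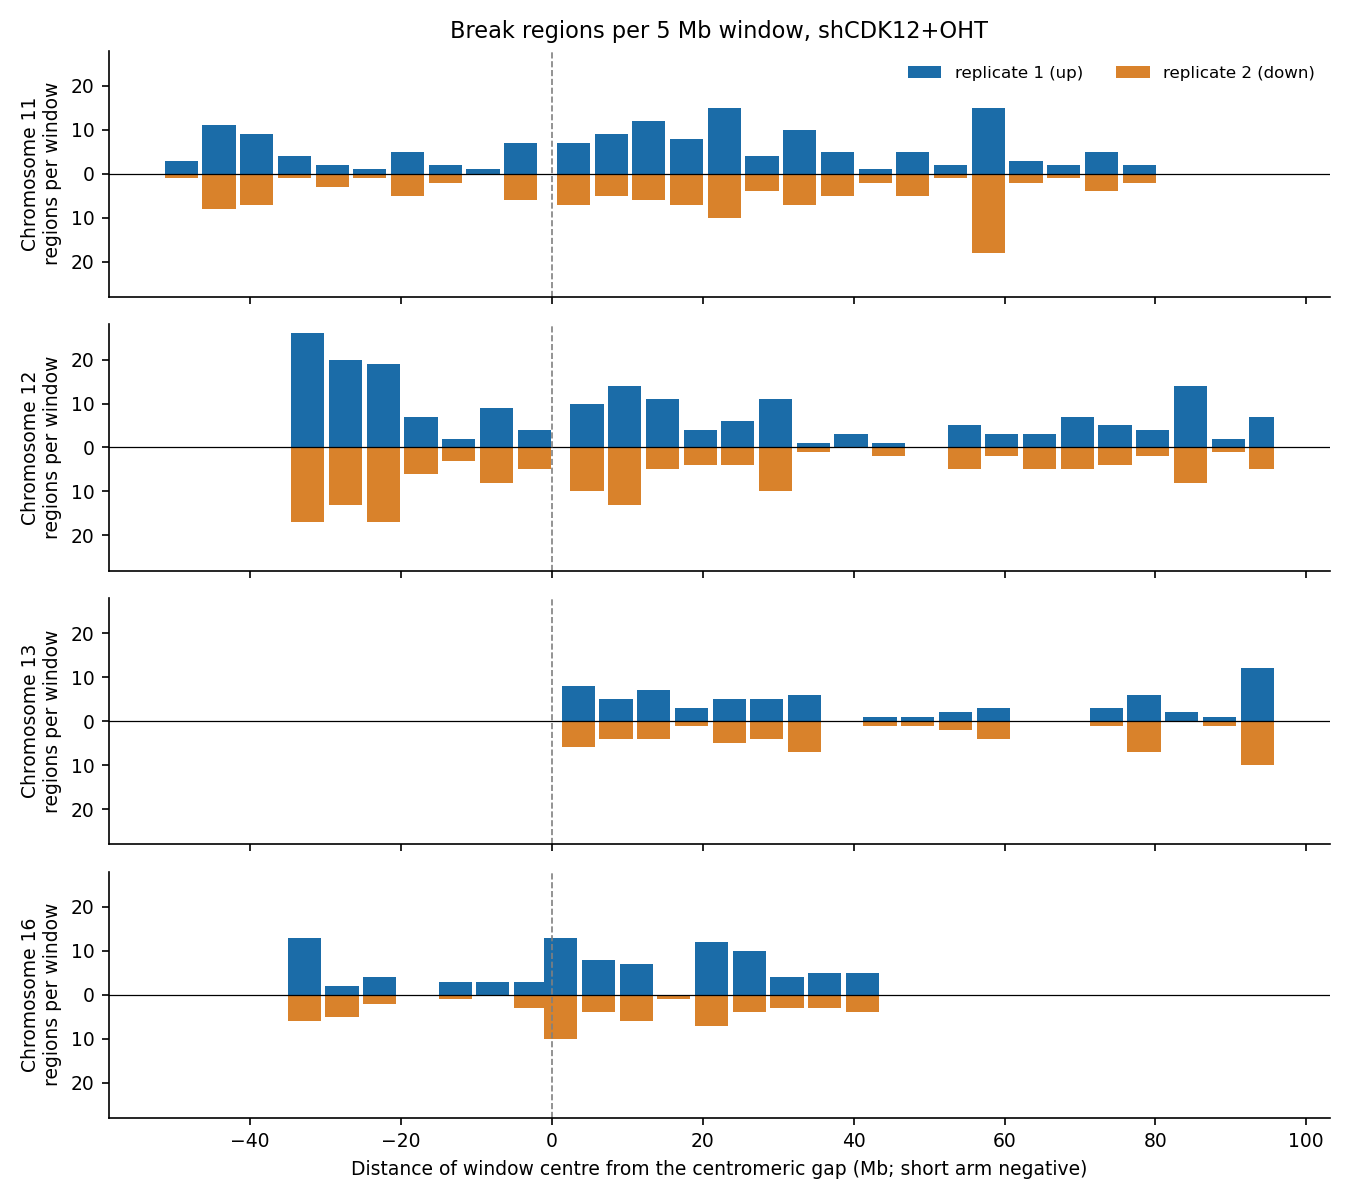
Regions in each 5 Mb window (vertical axes; replicate 1 upwards, replicate 2 downwards) of chromosomes 11, 12, 13 and 16 of shCDK12+OHT, against the distance of the window's centre from the centromeric or heterochromatin gap in Mb (horizontal axis; short arm negative, dashed line at the gap). The tallest bars are 15 and 18 on chromosome 11, 26 and 17 on chromosome 12, 12 and 10 on chromosome 13, and 13 and 10 on chromosome 16, and the profiles of the replicates mirror each other.

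Empty windows were more frequent on the members than elsewhere, by a small number of windows. In replicate 1, 6 of 87 windows were empty (6.90%, 95% Wilson interval 3.20 to 14.2) against 16 of 440 on the other autosomes (3.64%, 2.25 to 5.82). In replicate 2, 9 of 87 were empty (10.3%, 5.54 to 18.5) against 25 of 451 (5.54%, 3.78 to 8.05). The intervals overlap in both replicates. The differences of 3.26 and 4.80 percentage points had a mean of 4.03 (exact sign-flip permutation p = 0.5), which became 1.29 without chromosome 13, 9.38 with windows of 2 Mb, 0.906 with windows of 10 Mb and 17.6 when only regions of at least 4 kb were counted. Chromosome 13 alone held 3 of the 5 member windows that were empty in both replicates.

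The longest stretch without a region in either replicate measured 12.02 Mb on chromosome 13 (chr13:79978001-91996000), the third longest among the 22 autosomes. On chromosome 12 it measured 9.99 Mb (chr12:80104001-90098000), on chromosome 11 7.56 Mb (chr11:36554001-44116000) and on chromosome 16 7.44 Mb (chr16:14168001-21612000), at places 6, 10 and 11. The longest of the 22, with 22.4 Mb on chromosome 19, rests on replicate 2 alone, since replicate 1 lists no region there. On every autosome the stretches were cut at the centromeric or heterochromatin gap before the longest was taken. They were not checked for smaller assembly gaps.

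Regions lay near the chromosome ends more often on the members than elsewhere, a feature measured after the window counts had been seen. Within 5 Mb of a sequenced end lay 69 of 516 member regions in replicate 1 (13.4%, 95% Wilson interval 10.7 to 16.6) and 47 of 397 in replicate 2 (11.8%, 9.02 to 15.4), on 7.98% of the length. On the other autosomes the shares were 6.60% and 5.94%, on 6.79% and 7.07% of the length. The difference of 6.77 and 5.90 percentage points (mean 6.34, exact sign-flip permutation p = 0.5) came with separate intervals in both replicates, and was 10.5 without chromosome 11.

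The 4 chromosomes were not alike at their ends. End regions made up 16.4% and 14.01% of the regions of chromosome 12, 19.4% and 20.0% of those of chromosome 13 and 18.5% and 16.9% of those of chromosome 16 in replicates 1 and 2, on 7.64%, 5.20% and 12.6% of the length. On chromosome 11 they made up 3.31% and 2.48% on 7.58% of the length. On 12 the end in question was that of the short arm, with 26 and 17 regions against 7 and 5 at the long-arm end. On 13 the only sequenced end is distal, and it held 14 and 12.

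Most member regions were as narrow as the call allows. All starts and ends fall on a grid of 2 kb, and 390 of 516 member regions in replicate 1 (75.6%, 95% Wilson interval 71.7 to 79.1) and 311 of 397 in replicate 2 (78.3%, 74.0 to 82.1) were single bins of 2 kb. On the other autosomes 69.6% and 74.5% were single bins. The member share was higher by 5.99 and 3.88 percentage points (mean 4.94, exact sign-flip permutation p = 0.5), and by 8.50 among regions touched by the other replicate. The intervals were separate in replicate 1 and overlapped in replicate 2, where that of the other autosomes was 72.9 to 75.9. Autosomes in 1 shNT+OHT list had 71.7% and 76.8% single bins, closer to the members than autosomes in both, with 68.3% and 73.1%. Mean width was 2.94 kb and 2.70 kb on the members against 3.25 kb and 2.98 kb elsewhere, a difference of -0.313 kb and -0.286 kb (mean -0.300 kb, exact sign-flip permutation p = 0.5). That mean difference was -0.585 kb after joining regions over gaps of up to 10 kb, -0.486 kb among regions touched by the other replicate and -0.452 kb with single bins left out.

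No region wider than 12 kb was listed on the 4 chromosomes. The widest single-library regions measured 12 kb in replicate 1 and 8 kb in replicate 2, against 68 kb and 48 kb on the other autosomes, where 22 and 9 regions (0.542% and 0.278%) exceeded 12 kb. That limit was not particular to the members, since 9 of 17 other autosomes in replicate 1 and 12 of 18 in replicate 2 also held no wider region. The wider classes of the members comprised 40 and 41 regions of 4 kb, 65 and 38 of 6 kb, 15 and 7 of 8 kb, and in replicate 1 also 3 of 10 kb and 3 of 12 kb. On the other autosomes 6 kb was commoner than 4 kb in both replicates (556 against 438 and 368 against 321), as on the members in replicate 1 but not in replicate 2. Chromosome 13 had 0 regions of 4 kb and 9 of 6 kb in replicate 1.

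Among the members chromosome 13 had the largest share of single bins in replicate 1, at 83.3%, and chromosome 16 in replicate 2, at 81.4%. Chromosome 11 had the smallest share in both, at 72.8% and 75.2%. Mean widths ranged from 2.75 kb (chromosome 13) to 3.02 kb (chromosome 12) in replicate 1 and from 2.51 kb (chromosome 16) to 2.76 kb (chromosome 11) in replicate 2. The intervals of the 4 shares overlapped in both replicates.

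The widest regions seen in both replicates were chosen by rule, 3 on each chromosome after merging the lists. On chromosome 12 the widest was chr12:12710001-12722000, inside the crowded first 15 Mb, with 12 kb called in replicate 1 and 8 kb in replicate 2. At chr12:42624001-42636000, on the long arm, 12 kb were called in replicate 1 but 2 kb in replicate 2. The third, chr12:8848001-8856000, had 8 kb and 6 kb and was 1 of 8 merged regions of that width on the chromosome.

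On chromosome 11 all of them were 10 kb wide in replicate 1. At chr11:46136001-46146000, on the short arm 5498 kb from the centromeric gap, replicate 2 called 8 kb. At chr11:111376001-111386000 and chr11:111470001-111480000, both inside the fullest window of the chromosome, replicate 2 called 2 kb and 6 kb. On chromosome 13 the widest were chr13:52022001-52030000, with 8 kb in both replicates, chr13:91996001-92004000, with 6 kb and 8 kb, and chr13:111356001-111364000, with 8 kb and 2 kb. The one at 92 Mb is the first region after the 12.02 Mb empty stretch of chromosome 13.

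On chromosome 16 the widest region, chr16:46386001-46398000, lay 50.2 kb from the edge of the heterochromatin gap and had 12 kb in replicate 1 and 6 kb in replicate 2. The other named regions of chromosome 16 were chr16:9182001-9190000, with 8 kb in replicate 1 and 4 kb in 2 separate regions of replicate 2, and chr16:84730001-84738000, with 8 kb and 2 kb. Next to another gap lay the widest member region that a single replicate listed, chr11:54826001-54834000, with 8 kb in replicate 1, none in replicate 2, and 182 kb to the centromeric gap of chromosome 11. Mapping next to such gaps is often uncertain because of repeats, and its part in these regions was not tested. Of the 12 regions named from both replicates, replicate 1 called the wider stretch in 10, replicate 2 in 1, and both the same in 1.

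Clustering was weaker on the 4 chromosomes in absolute distance. A neighbour within 100 kb in the same list was found for 194 of 516 member regions in replicate 1 (37.6%, 95% Wilson interval 33.5 to 41.9) and 122 of 397 in replicate 2 (30.7%, 26.4 to 35.4). On the other autosomes 49.9% and 40.6% of regions had one. The difference of -12.3 and -9.87 percentage points had a mean of -11.1 (exact sign-flip permutation p = 0.5), with separate intervals in both replicates.

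The median distance to the nearest region was 154 kb in replicate 1 and 210 kb in replicate 2 on the members, against 102 kb and 145 kb elsewhere. Sparser regions lie further apart by number alone, so the distance was also divided by the mean spacing, which was 850 kb and 1104 kb on the members. The ratio was 0.181 and 0.190 on the members and 0.188 and 0.207 on the other autosomes. Relative to mean spacing, the members' pooled value was the lower in both libraries, a difference for which no test was run. By chromosome the order was mixed. Chromosome 13 lay above the other autosomes in both replicates (0.256 and 0.221), and 12 in replicate 1 only (0.218 and 0.187). Chromosomes 11 (0.146 and 0.200) and 16 (0.179 and 0.172) lay below in both. Autosomes in 1 shNT+OHT list had 0.178 and 0.196, the first of which is below the members' value.

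**Figure D3:**
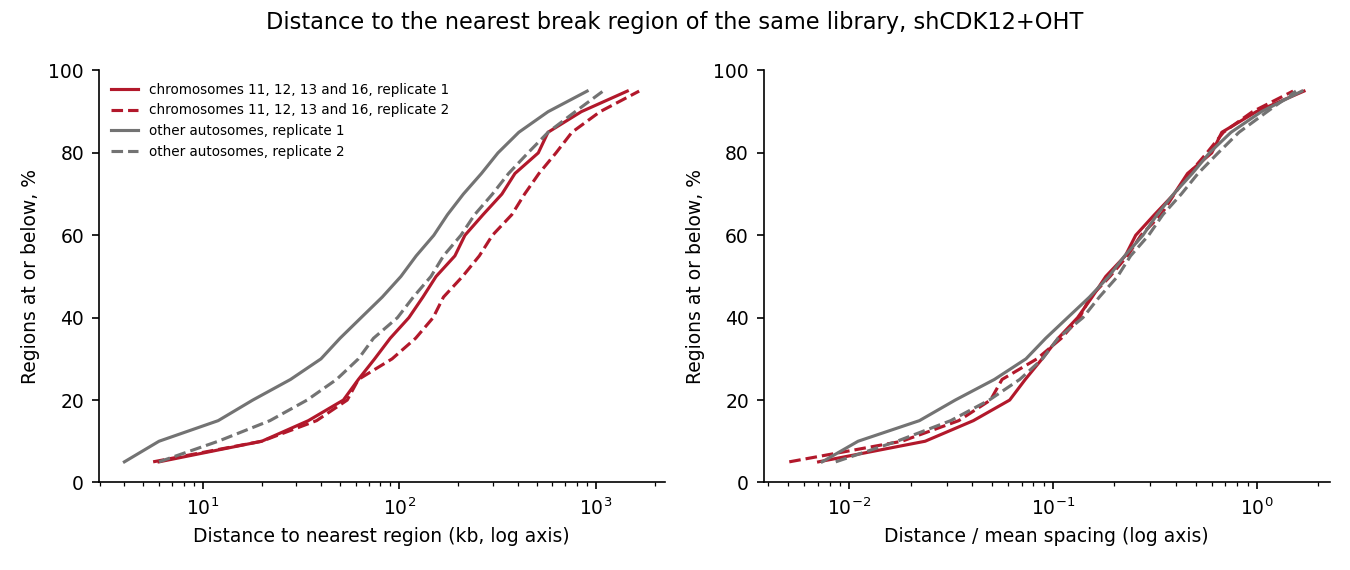
Share of regions (vertical axes, %) whose nearest region of the same library lies at or below a distance in kb (left, log axis) or at or below that distance divided by the mean spacing (right, log axis), for the members (red) and the other autosomes (grey) in shCDK12+OHT replicate 1 (solid) and replicate 2 (dashed), drawn from the 5% to the 95% quantile. In kb the members' curves lie to the right, with medians of 154 and 210 kb against 102 and 145 kb, and relative to spacing the 4 curves lie close together, with medians of 0.181, 0.190, 0.188 and 0.207.

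Neighbours were commonest on chromosomes 11 and 12 in replicate 1, where 41.7% and 40.8% of regions had one within 100 kb. In replicate 2 the share on chromosome 12 was 37.6% and that on chromosome 11 was 25.6%, the largest fall between replicates among the members. Chromosome 16 had 35.9% and 32.2%, and chromosome 13 had 22.2% and 21.7%, the lowest of the 4 in both replicates. The median nearest distance on chromosome 13 was 342 kb in replicate 1 and 354 kb in replicate 2.

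By arm, clustering went with density. A share within a fixed distance rises with density by number alone, and the arms were not adjusted for it. A neighbour at up to 100 kb was found for 49.4% and 53.6% of the regions on the short arm of chromosome 12, against 34.2% and 25% on its long arm. On chromosome 11 the order was turned, with 24.4% and 5.88% on the short arm and 49.1% and 33.3% on the long arm. Chromosome 16 had 14.3% and 23.5% on the short arm and 45.3% and 35.7% on the long arm. The short-arm shares rest on few regions, 45 and 34 on chromosome 11 and 28 and 17 on chromosome 16.

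Chains of regions, joined across gaps of up to 100 kb after merging both lists, were short on the members. Of 616 merged member regions, 339 stood alone and 93 (15.1%) belonged to the 23 chains of 3 or more regions, whereas 31.8% of merged regions elsewhere belonged to such chains and the longest comprised 40 regions. Sparser regions form fewer and shorter chains over a fixed gap by number alone, and the chains were not adjusted for density. The longest member chain was chr12:9776001-10110000, on the crowded short arm, with 8 regions over 334 kb. Replicate 1 listed 4 of its regions and replicate 2 listed 6, and 2 were in both.

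The longest chain of chromosome 16, chr16:70832001-71186000, had 7 regions over 354 kb, all in replicate 1 and 3 also in replicate 2. That of chromosome 11, chr11:59354001-59466000, was shorter but better shared, with 5 regions over 112 kb of which 4 were in both replicates. Chromosome 13 had a single chain of 3 or more, chr13:114998001-115082000, with 3 regions over 84 kb near its distal end. Regions in chains of 3 or more made up 18.5% of merged regions on chromosome 12, 18.3% on 16, 13.7% on 11 and 3.70% on 13.

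The replicates shared close to the same part of their regions on the members as elsewhere. Of the 516 regions of replicate 1, 288 (55.8%, 95% Wilson interval 51.5 to 60.0) shared at least 1 bp with a region of replicate 2, and of the 397 regions of replicate 2, 290 (73.0%, 68.5 to 77.2) were touched by replicate 1. On the other autosomes the shares were 56.5% and 71.6%. The second of these counts 25 regions of chromosome 19, which replicate 1 does not list and so could not touch. The differences of -0.699 and 1.46 percentage points had opposite signs and a mean of 0.383 (exact sign-flip permutation p = 1.0). With chromosome 19 left out the difference in replicate 2 was 0.907 and the mean 0.104. With regions under 4 kb taken out of both lists the mean difference was -9.01 percentage points, and the share was lower on the members in both replicates.

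Width went with agreement on the members as it did elsewhere. Of the members, single bins were touched in 47.9% of cases in replicate 1 and 67.8% in replicate 2, and wider regions in 80.2% and 91.9%. On the other autosomes the shares were 44.3% and 63.6% for single bins and 84.5% and 94.8% for wider regions. The replicate 2 shares of the other autosomes again count chromosome 19. Member regions in both lists measured 3.63 kb on average after merging, and those in 1 list 2.31 kb. This last difference is in part built in, since a merged region cannot be narrower than either of the calls it joins. A wider region also offers more bases for an overlap. Identical starts and ends in both lists were found for 208 regions, 40.3% of replicate 1 and 52.4% of replicate 2.

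**Figure D4:**
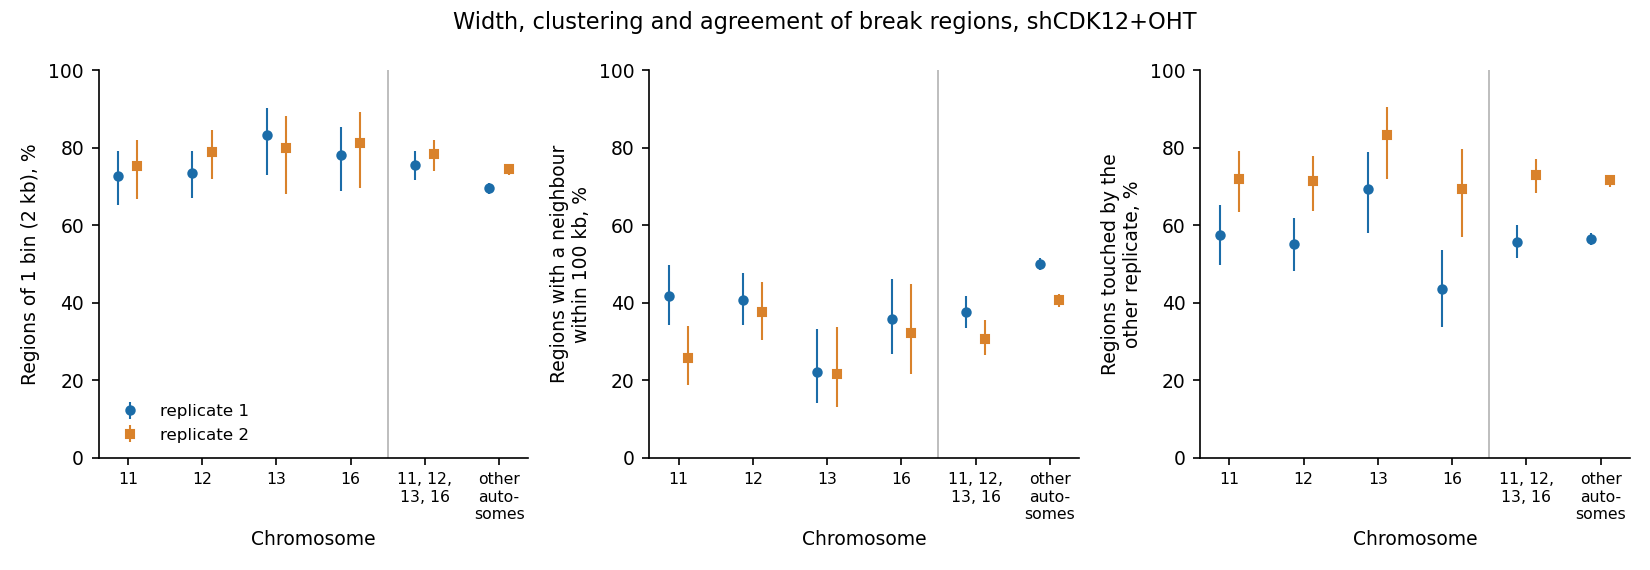
Share of regions (vertical axes, %) that were single 2 kb bins (left), had a neighbour within 100 kb in the same list (middle) or were touched by the other replicate (right), for chromosomes 11, 12, 13 and 16, for these together and for the other autosomes (horizontal axes), in shCDK12+OHT replicate 1 (circles) and replicate 2 (squares), with 95% Wilson intervals as bars. Together the members lie above the other autosomes in single bins (75.6% and 78.3% against 69.6% and 74.5%), below them in neighbours (37.6% and 30.7% against 49.9% and 40.6%) and level with them in agreement (55.8% and 73.0% against 56.5% and 71.6%). The 71.6% counts the chromosome 19 regions of replicate 2, which replicate 1 does not list.

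Chromosome 13, the sparsest of the members, was the best shared. Replicate 2 touched 69.4% of its regions of replicate 1, and replicate 1 touched 83.3% of its regions of replicate 2. Chromosome 16 was at the other end, with 43.5% and 69.5%, and its short arm lower still, with 32.1% and 58.8%. Chromosomes 11 (57.6% and 71.9%) and 12 (55.2% and 71.3%) lay between them. The 95% Wilson intervals of 13 and 16 were separate in replicate 1 (58.0 to 78.9 and 33.8 to 53.7). In replicate 2 they overlapped (72.0 to 90.7 and 56.9 to 79.7). The interval of 13 overlapped those of 11 and 12 in both replicates.

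In bases, the overlap of the replicates divided by the bases in either (the Jaccard index) was 0.521 on chromosome 13, the highest of 21 autosomes, and 0.353 on chromosome 16, at place 20 of 21. Chromosome 6 lay close to 13, with 0.517. Chromosomes 12 and 11 had 0.441 and 0.414, at places 11 and 14. Over all members the index was 0.429, against 0.446 on the other autosomes without chromosome 19. Merged regions in both lists made up 63.0% of those on chromosome 13 (95% Wilson interval 52.1 to 72.7) and 37.6% of those on chromosome 16 (29.1 to 47.0), with 48.6% on 11 and 46.9% on 12. The intervals of 13 and 16 are separate, whereas that of 13 overlaps those of 11 (41.5 to 55.8) and 12 (40.7 to 53.2).

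Of the merged member regions, 295 of 616 (47.9%) were in both lists, 221 in replicate 1 only and 100 in replicate 2 only, and the share in both was 47.8% on the other autosomes. Of the member regions without a partner, 89 of 228 in replicate 1 and 52 of 107 in replicate 2 lay within 100 kb of a region of the other list, against 887 of 1766 and 458 of 919 on the other autosomes. The 47.8% and the 919 both count the 25 regions of chromosome 19, which could have no partner in replicate 1.

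Counted by window rather than by region, the replicates followed each other closely. Over the 87 member windows the counts of replicates 1 and 2 correlated with Pearson's r of 0.906 and Spearman's rho of 0.896, given as a description because windows are neighbours on 4 chromosomes and share their library. Over the 440 windows of the other autosomes without chromosome 19 the values were 0.928 and 0.900. By chromosome r was 0.936 on 12, 0.926 on 13, 0.887 on 11 and 0.823 on 16. The 9 fullest of the 87 member windows held 29.2% of the members' windowed regions in replicate 1 and 30.1% in replicate 2, against 32.5% and 29.0% in the fullest 44 of 440 windows elsewhere.

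**Figure D5:**
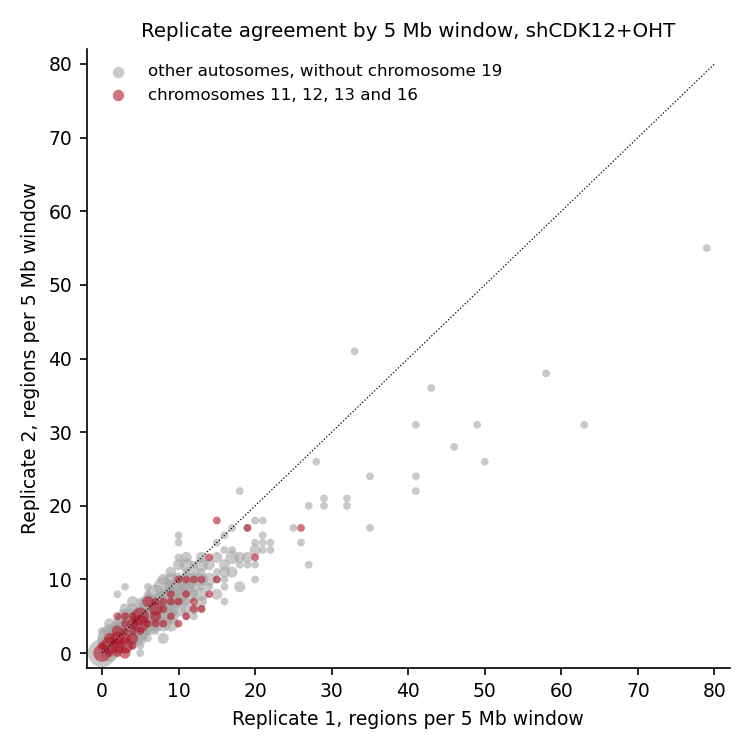
Regions per 5 Mb window in shCDK12+OHT replicate 1 (horizontal axis) and replicate 2 (vertical axis) for the 87 windows of chromosomes 11, 12, 13 and 16 (red) and the 440 windows of the other autosomes without chromosome 19 (grey), with the area of a point proportional to the number of windows at that pair of counts and a dotted line at equal counts. Member windows lie at the lower end of the range, at most 26 and 18 regions against 79 and 55, and along the same band as the other windows, mostly below the line.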

How the data were processed

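Break regions were analysed from the 2 shCDK12+OHT libraries, and the 2 shNT+OHT lists served only to apply the rule of selection. The deposited values are coordinates of another kind than a signal: the authors listed chromosome, start and end of each region per library, on hg19 per the submitters' processing notes. How regions were called is not given in the sources used here. Every start and end was a multiple of 2 kb, the smallest gap was 4 kb, and 0 regions passed an hg19 chromosome end or fell inside an hg19 gap.

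From these lists regions per Mb of sequenced length, width, distance to the nearest region and overlap (at least 1 bp) were computed per library with Python 3.11.15, numpy 2.4.6, pandas 2.3.3 and scipy 1.17.1. Densities carry 95% exact Poisson and shares 95% Wilson intervals, for counting error only. Differences between members and other autosomes were tested by an exact two-sided sign-flip permutation test over the 2 libraries. The computations were tested on simulated lists. The members and the lists of regions and tests were chosen with earlier results of these data known. Named regions were, on each chromosome, the 3 widest in both replicates, the fullest 5 Mb window and the longest chain, and over the 4 chromosomes the widest region of 1 replicate. Alternatives changed the smallest width, merging (gaps of up to 10 kb), the window (2 or 10 Mb), the neighbour distance (50 or 500 kb), the overlap rule, the length basis, the autosomes compared and the replicates. The annotation at hand was hg38, so no genes were named and the planned gene lists were not run. Plots were drawn with matplotlib 3.10.9.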

Additional observations from a re-analysis of the deposited data

How the results depend on the processing

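With 2 libraries no test can pass a threshold, so stability is given as direction and size. Of 121 alternatives to 14 results, 108 kept the direction or stayed within the replicate spread, 9 moved a density by more than that, and 4 turned a direction. Among the 10 results with a test, 93 of 97 alternatives kept the direction. All 4 that turned concern the agreement of the replicates, whose difference of 0.383 percentage points became -9.01 among regions of at least 4 kb, -0.678 with regions up to 10 kb apart joined, -1.52 when a region within 10 kb counted as touching and -1.64 without chromosome 13, the last chosen after seeing the data. Leaving a replicate out gives no value for agreement, which needs both. For the other results it only repeats the main value of the remaining replicate. Such alternatives could not turn a direction that both replicates shared, nor move a density beyond the replicate spread. They are counted in these tallies but are no check of stability. The cause of these turns was not tested.

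The 9 densities that moved follow from the construction of the alternatives, which count fewer regions or more length. With regions of at least 4 kb only, chromosomes 11, 12, 13 and 16 had 0.269, 0.329, 0.125 and 0.195 regions per Mb, and with regions touched by the other replicate only, 0.659, 0.852, 0.520 and 0.510. Over its full length, short arm included, chromosome 13 had 0.573 regions per Mb. The density ratio of members to other autosomes (main value -0.65, log2) ranged from -0.52 without chromosome 13 to -0.93 with regions of at least 4 kb. The added alternatives, for chromosome ends and with each member chromosome left out in turn, were chosen after seeing the data. The difference for chromosome ends ranged from 4.65 without chromosome 12 to 10.5 without chromosome 11.

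No paired analysis was possible because the shNT+OHT lists hold no region on these chromosomes, and leave no groups to compare there. No list gives a depth, and a place without a region is not a place without breaks.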
